A study of Mus musculus with 4 samples.

Results

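Lcn2, Cd14 and Lbp, 3 of the 56953 gene rows of the count table and 3 of the 14600 genes that passed a filter on low counts, were described in 4 mouse liver libraries. They were picked by symbol, with their values in these libraries already known, so their differences between genotypes are given as a description with no test. The 2 deletion libraries came from Ubc13 flox/flox, Alb positive mice, labelled as a hepatic Ubc13 deletion, and the 2 control libraries from Ubc13 flox/flox, Alb negative mice, labelled WT. All 4 carried the flanked Ubc13 alleles, were fed a normal diet and were taken at 2 months of age. The albumin promoter acts in hepatocytes, so other liver cells are not its direct target. Sex, strain and whether replicates were separate animals are not stated in the labels, and p-values measure only the spread between these libraries, which may be technical. The labels name liver as the tissue, while their library protocol speaks of primary hepatocytes. The Kupffer cell lectin Clec4f had 4534 and 3886 counts in the deletion libraries and 1896 and 2563 in the controls, so RNA of non-parenchymal cells was present in every library.

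The proteins of these genes act at the first contact between liver and bacteria. Lbp, made by hepatocytes and released into blood, takes single endotoxin molecules from bacterial membranes and hands them to Cd14, a leucine-rich repeat protein on myeloid cells that also circulates in soluble form. Cd14 passes endotoxin to the complex of Tlr4 and Ly96 (MD-2), whose signal runs through Myd88, Irak kinases and Traf6. There Ubc13, the product of Ube2n, builds the K63-linked ubiquitin chains that carry the signal towards NF-kB. Lcn2, a lipocalin secreted by hepatocytes, epithelia and neutrophils, binds bacterial siderophores and so withholds iron. In mice Lcn2 and Cd14 are known to be induced in liver by endotoxin and cytokines, and Lbp is known as an acute phase gene.

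The Lcn2 promoter is shown because this gene had the largest difference between genotypes and, in the deletion libraries, the highest level of the 3. The source of promoter stretches held none for Lbp, and none was looked up for Cd14. The stretch lies at chr2:32387798-32387989 on GRCm38.p6 (RefSeq), on the minus strand, and is written 5′ to 3′ in the direction of the gene. It ends just before the annotated start of the main coding transcript, and lies within the annotated span of the gene, which runs to base 32388252. Capitals mark matches on either strand to TTGCNNAA (C/EBP) and to GGG and CC parted by any 5 bases (NF-kB).
Lcn2 promoter: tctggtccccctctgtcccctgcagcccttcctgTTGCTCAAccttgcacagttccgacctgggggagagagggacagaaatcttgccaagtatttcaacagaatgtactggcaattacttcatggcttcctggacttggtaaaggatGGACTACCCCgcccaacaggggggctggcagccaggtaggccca

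The C/EBP match, TTGCTCAA, lay at 32387948 to 32387955, and matching letters were found in 7.84% of 32851 mouse promoter stretches of the same length. The NF-kB match, GGACTACCCC on the strand shown, lay at 32387832 to 32387841, and 35.7% of the stretches held such letters. The 2 matches did not overlap. No match was found to TTCNNNGAA (STAT) or TGANTCA (AP-1), which 5.56% and 5.28% of stretches held. These are matches of letters in this window and no measure of binding.

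Lcn2 (ENSMUSG00000026822) lies on chromosome 2 from 32384633 to 32388252 on the minus strand. Lbp (ENSMUSG00000016024) spans bases 158306493 to 158332852 of the same chromosome and is read from the plus strand. Cd14 (ENSMUSG00000051439) spans bases 36725067 to 36726798 of chromosome 18 and is read from the minus strand. These coordinates are on GRCm38. Libraries of this 3′ kind read a short stretch at the end of each transcript, and in all 3 the polyadenylation signal AATAAA lay near the end of the last exon. The last exon was exon 6 of 6 and 252 bases long in Lcn2, exon 2 of 2 and 1331 bases long in Cd14, and exon 15 of 15 and 947 bases long in Lbp. The signal ended 15 bases before the transcript end in Lcn2 and Cd14 and 17 bases before it in Lbp, while 50.2% of 58787 protein-coding transcripts had AATAAA or ATTAAA within their last 50 bases. Counts therefore follow transcript number and not transcript length, and levels are given as counts per 1000000 counts (CPM) after TMM scaling. No other annotated gene overlapped any of the 3.

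The libraries held 16270424 to 17800138 counts each, and 3 counts in a library equal 0.154 to 0.206 CPM. Ube2n, the targeted gene, had 5.88 and 5.97 CPM in the deletion libraries against 41.3 and 44.9 CPM in the controls (log2 fold change -2.86 ± 0.16 SE, edgeR adjusted p = 0.00188). The libraries also differed in sex-linked RNA. Xist had 9590 and 3896 counts in deletion replicates 1 and 2 against 9 and 2 in the controls, and 4 Y-linked genes together had 0 and 1754 counts against 2312 and 2209. Deletion replicate 2 thus held both kinds of RNA, and whether it mixed male and female material was not tested. Genotype is confounded with sex here, so the deletion and sex cannot be fully told apart in any comparison of these libraries. With the share of Y-linked counts as a covariate, the log2 fold changes of Lcn2, Cd14 and Lbp were 5.10, 5.30 and 0.41. In that fit, with 1 residual degree of freedom less, 65 genes in all were called, and of 39 called genes taken up by the rule for names, 32 no longer passed. Ube2n was among them, at -2.82 on the log2 scale (edgeR adjusted p = 0.0643). The 7 that still passed were Defb1, Orm2, Spp1, Gm11843, Elovl7, H2-T-ps and Mfge8.

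Lcn2 had 26160 and 23972 counts in deletion replicates 1 and 2, against 454 and 584 in control replicates 1 and 2. On the CPM scale these are 1438 and 1234 in the deletion libraries and 28.0 and 40.1 in the controls, or 1336 ± 144 against 34.1 ± 8.6 (SD, n = 2 each). The groups did not overlap, and the lower deletion library lay 30.7-fold above the higher control. The fitted log2 fold change was 5.29 ± 0.27 (SE), a 39.2-fold difference. Lcn2 took 0.155% of all counts in deletion replicate 1 (exact 95% interval 0.153 to 0.156) and 0.140% in replicate 2 (0.138 to 0.142), against 0.00255% (0.00232 to 0.00280) and 0.00359% (0.00330 to 0.00389) in the controls. By CPM it ranked 66 and 74 among the 14600 tested genes in the deletion libraries and 4647 and 3484 in the controls. Without control replicate 2 its log2 fold change was 5.58, and with the other libraries left out in turn it was 5.05 to 5.40.

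Cd14 had 930 and 1789 counts in deletion replicates 1 and 2, against 49 and 56 in control replicates 1 and 2. On the CPM scale it had 51.1 and 92.1 in the deletion libraries and 3.02 and 3.85 in the controls, or 71.6 ± 29.0 against 3.43 ± 0.58 (SD, n = 2 each). The groups did not overlap, and the lower deletion library lay 13.3-fold above the higher control. The fitted log2 fold change was 4.38 ± 0.35, a 20.9-fold difference, or 3.89 without deletion replicate 2 and 4.73 without deletion replicate 1. The deletion libraries differed from each other in Cd14 more than in most genes: replicate 1 held 0.555 of the CPM of replicate 2, and 4.75% of tested genes differed more between these libraries. Lcn2 had the opposite order there, with a ratio of 1.17 between replicates 1 and 2. In the controls Cd14 was among the less abundant tested genes, above 24.7% and 28.6% of them, and in the deletion libraries it was above 80.3% and 89.7%.

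Lbp went against the name of an antimicrobial response shared by the 3 genes. It had 1827 and 2834 counts in deletion replicates 1 and 2, against 1916 and 2478 in control replicates 1 and 2. Its CPM values were 100.4 and 145.8 in the deletion libraries and 118.2 and 170.2 in the controls, or 123 ± 32 against 144 ± 37 (SD, n = 2 each), so the groups overlapped. The fitted log2 fold change was -0.23 ± 0.26, less than its own error, and its sign changed with scaling by library sizes alone (0.07). It also changed without control replicate 2 (0.06), without deletion replicate 1 (0.0049) and with the Y-linked covariate (0.41), so no direction is given for Lbp. In each genotype replicate 1 held about 0.69 of the CPM of replicate 2, with ratios of 0.688 in the deletion libraries and 0.694 in the controls. Of the 3 genes, 2 therefore had groups that did not overlap, both higher in the deletion libraries, where 28.7% of all tested genes had such groups. Counting both directions, the groups did not overlap in 56% of tested genes.

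**Figure D1:**
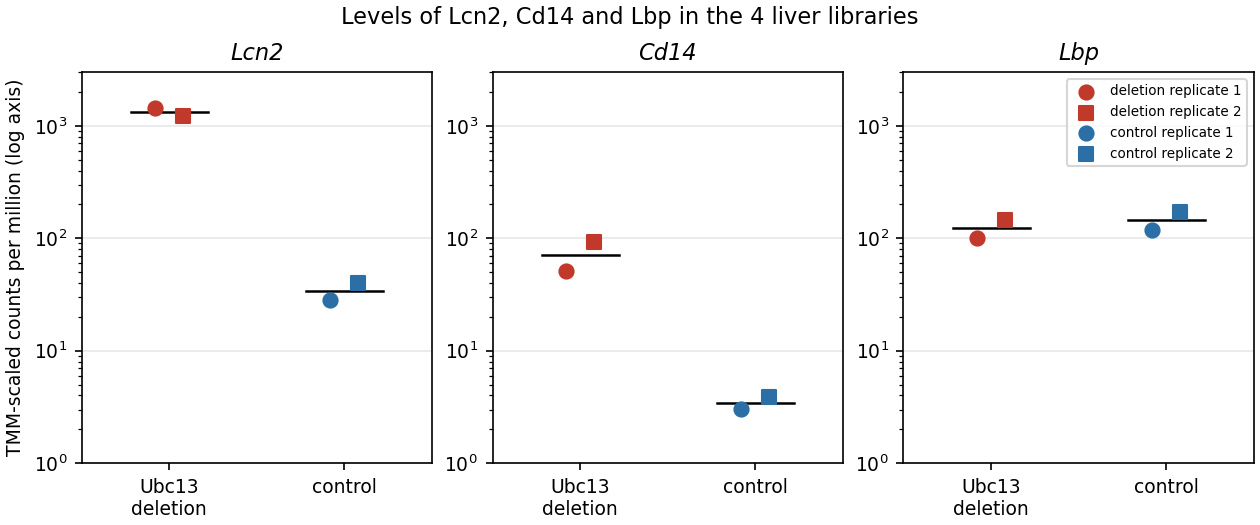
TMM-scaled CPM (log axis) of Lcn2, Cd14 and Lbp in the deletion libraries (red) and the controls (blue), with replicate 1 as circles, replicate 2 as squares and the mean of each group as a bar. Lcn2 and Cd14 lie at 1234 to 1438 and 51.1 to 92.1 CPM in the deletion libraries, above every control value, and the Lbp values of the groups overlap.

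Ratios within a library do not depend on scaling between libraries. Per Lbp count there were 14.3 and 8.46 Lcn2 counts in deletion replicates 1 and 2, against 0.237 and 0.236 in control replicates 1 and 2. For Cd14 the ratios to Lbp were 0.509 and 0.631 in the deletion libraries and 0.0256 and 0.0226 in the controls. The controls thus differed little from each other in both ratios. Relative to each other, Lcn2 and Cd14 had 28.1 and 13.4 Lcn2 counts per Cd14 count in the deletion libraries and 9.27 and 10.4 in the controls. Albumin (Alb), the main plasma protein of hepatocytes, was at -1.41 ± 0.33 on the log2 scale and was not called (edgeR adjusted p = 0.0612). Per 1000 Alb counts there were 2.22 and 3.40 Lbp counts in the deletion libraries and 0.993 and 1.48 in the controls. The Lbp values did not overlap on this measure, whose denominator was itself lower in the deletion libraries. The share of all tested genes without overlap on this measure was not computed, so the separation is not particular to Lbp. In bulk RNA, a change in the number of cells of a type and a change in RNA per cell cannot be told apart.

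Among all tested genes, Lcn2 had the 30th and Cd14 the 63rd highest fitted log2 fold change, and 61.5% of genes had a larger absolute fold change than Lbp. Of the 14600 tested genes, 959 (6.57%) were called by the edgeR quasi-likelihood test at an adjusted p under 0.05, 644 higher in the deletion libraries (4.41%) and 315 lower (2.16%). With library sizes alone as scaling, the median log2 fold change shifted by 0.29 and 88.5% of calls were higher, against 67.2% with TMM. Neighbouring genes are compared next, using the 2 nearest tested genes on each side. Of the 4 around Lcn2, 2694 to 26234 bases away, 0 were called (1 had an unadjusted p under 0.05 and DESeq2 called 1, in both cases Slc25a25), and their log2 fold changes ran from -0.83 (Slc25a25, a mitochondrial carrier) to 0.36 (1110008P14Rik). Around Cd14, 8240 to 45700 bases away, edgeR called 0 of 4 (2 with an unadjusted p under 0.05, DESeq2 0), with values of -0.43 (Ndufa2, a complex I subunit) to 0.47 (Apbb3). Around Lbp, Tgm2, a protein-crosslinking transglutaminase 160056 bases away, was called higher (1.90 ± 0.40, edgeR adjusted p = 0.0485), and the other 3 were not. Without deletion replicate 1 or 2 Tgm2 was not called (adjusted p = 0.111 and 0.110).

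**Figure D2:**
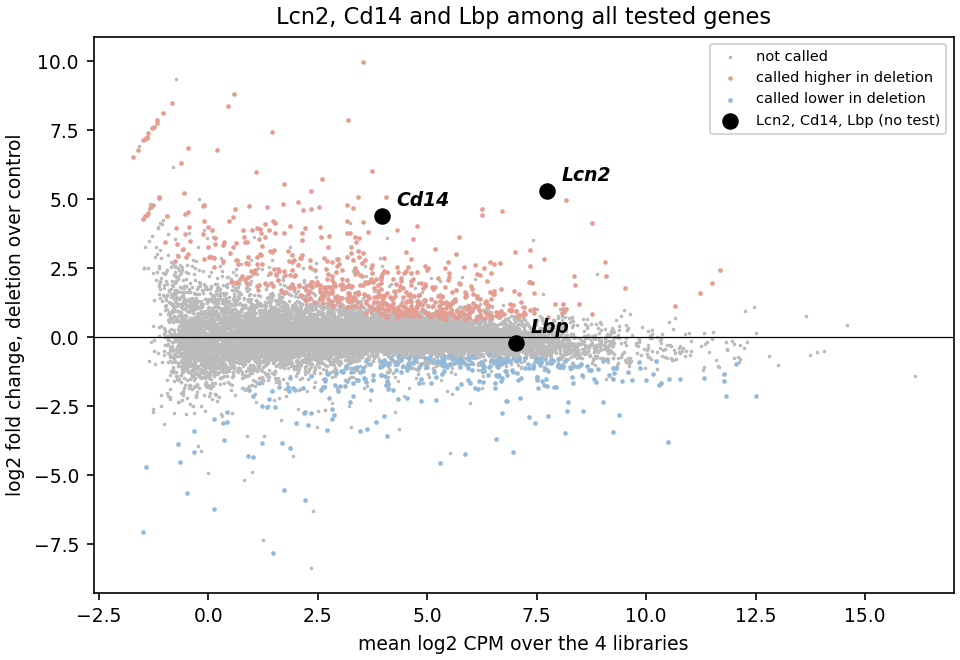
Log2 fold change of the deletion over the control libraries against mean log2 CPM over the 4 libraries, 1 point per tested gene, with called genes in red (higher) and blue (lower). Lcn2 at 5.29 and Cd14 at 4.38 (black) lie above most genes of their level, and Lbp at -0.23 lies in the middle of the cloud.

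On the receptor side of endotoxin recognition, 1 gene was called besides the targeted Ube2n. The list held 27 genes of the Tlr4 complex, its adapters and proximal kinases, of which 25 were tested. Of these, 1 rose (Tlr2), 1 fell (Ube2n) and 23 did not pass. The called share was 8% against 6.57% among all tested genes, and it includes Ube2n, whose fall was set by the deletion. The median log2 fold change of these genes was 0.17, and that of all tested genes was -0.0036. Tlr2, the receptor for bacterial lipoproteins, which also works with Cd14, had 26.2 and 9.88 CPM in deletion replicates 1 and 2 against 3.39 and 1.51 CPM in the controls (2.86 ± 0.58, edgeR adjusted p = 0.0424). Without deletion replicate 1 it was not called (adjusted p = 0.101). Tlr4 itself had 51 and 42 counts in the deletion libraries against 22 and 45 in the controls (0.16 ± 0.47, adjusted p = 0.874), so the groups overlapped. Ly96, the endotoxin-binding partner of Tlr4, had 67 and 73 counts against 38 and 36 (0.63 ± 0.30, adjusted p = 0.268).

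The adapters and kinases below the receptor were measured more precisely. Myd88, the adapter of most Toll-like receptors, had a log2 fold change of 0.33 ± 0.16, and Tirap, which brings Myd88 to Tlr4, one of -0.14 ± 0.16. Ticam1, the adapter of the interferon branch, was at 0.12 ± 0.15. Traf6, the ubiquitin ligase that works with Ubc13, was at 0.22 ± 0.18, and the kinases Irak1 and Irak2 were at 0.17 ± 0.15 and -0.09 ± 0.16 (edgeR adjusted p from 0.27 to 0.788 for these 6 genes). The kinase Irak4 had 21.4 and 22.2 CPM in the deletion libraries against 13.0 and 13.7 CPM in the controls (0.70 ± 0.15), groups that did not overlap, with an adjusted p of 0.0533. Beside differences of 5.29 and 4.38 for Lcn2 and Cd14, each of these 7 genes lay within 1 log2 unit of 0. Irak3, an inhibitory member of the kinase family singled out after its values were seen, had 165 and 66 counts in deletion replicates 1 and 2 against 15 and 18 in the controls, groups that did not overlap (2.52 ± 0.56, adjusted p = 0.0538).

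**Figure D3:**
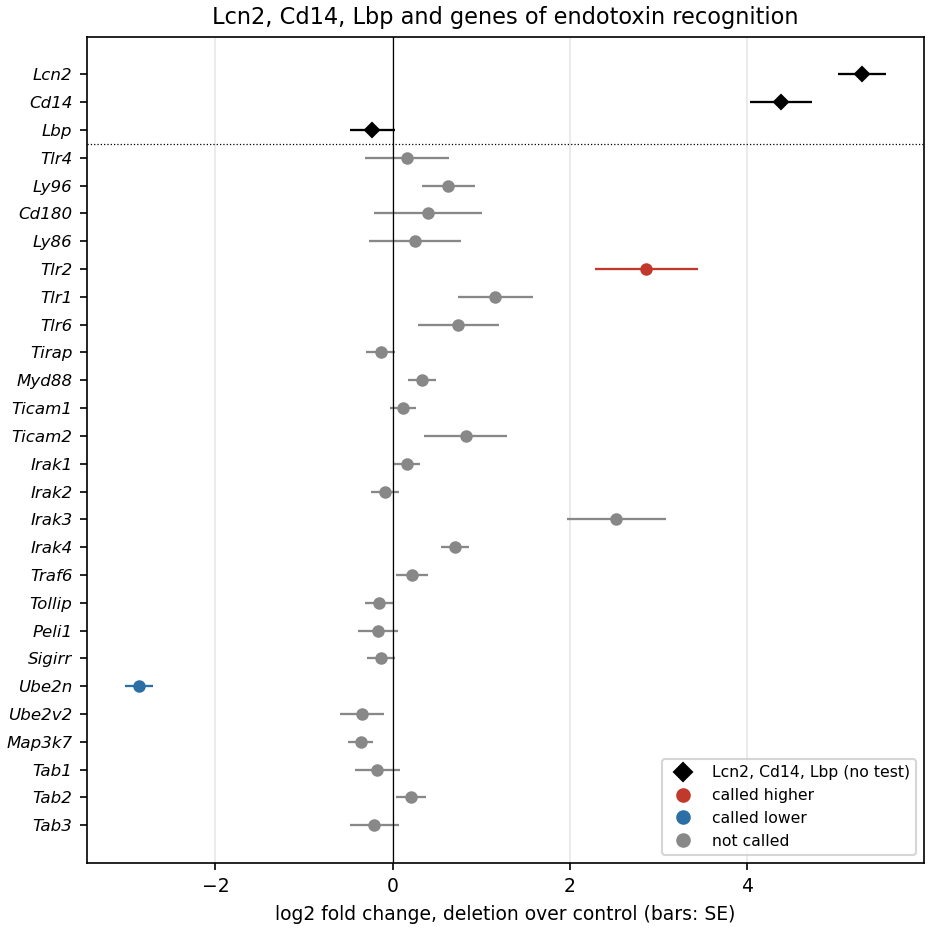
Log2 fold change of the deletion over the control libraries, with SE bars, for Lcn2, Cd14 and Lbp (diamonds) and the 25 tested genes of endotoxin recognition (circles; red called higher, blue called lower, grey not called). Tlr2 at 2.86 and Ube2n at -2.86 are the called genes of the list.

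Among genes that carry, take up or inactivate endotoxin, 2 of 16 tested rose, 0 fell and 14 did not pass. The called share was 12.5% against 6.57% of all tested genes, and the median was 0.16. At an unadjusted edgeR p under 0.05 there were 4 higher genes and 1 lower, and DESeq2 called 2 higher and 1 lower. Cd36, a scavenger receptor that also takes up fatty acids, had 73.3 and 61.9 CPM in the deletion libraries against 24.2 and 24.5 CPM in the controls (1.47 ± 0.16, edgeR adjusted p = 0.0080). Alpl, an alkaline phosphatase able to dephosphorylate endotoxin, had 72.4 and 51.4 CPM against 22.3 and 28.1 CPM (1.30 ± 0.22, adjusted p = 0.0274), a call lost without deletion replicate 1 (0.0790). Of the relatives of Lbp, Pltp, which transfers phospholipids between lipoproteins, had 29.5 and 27.5 CPM in the deletion libraries and 17.6 and 18.5 CPM in the controls, groups that did not overlap (0.66 ± 0.15, adjusted p = 0.0555). Bpi, the neutrophil member of the family, had 0 counts in every library. Aoah, which deacylates endotoxin, was at 0.59 ± 0.45 (adjusted p = 0.480).

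Of 33 other secreted antimicrobial proteins, 32 had a row and 16 were tested, of which 2 rose, 1 fell and 13 did not pass (18.8% called against 6.57% of all tested genes, median 1.45). Slpi, a protease inhibitor of mucosal surfaces with antibacterial activity, had 54.2 and 47.8 CPM in the deletion libraries against 3.95 and 1.58 CPM in the controls (4.19 ± 0.38, edgeR adjusted p = 0.00545). Defb1, an epithelial beta-defensin, had 142 and 526 counts against 25 and 14 (3.78 ± 0.67, adjusted p = 0.0299), a call lost without deletion replicate 2 (0.0528). As with Cd14, deletion replicate 2 was the higher library for Defb1. Leap2, a peptide of hepatocytes first described as antimicrobial and also an antagonist of the ghrelin receptor, fell to 3.30 and 5.04 CPM in the deletion libraries, against 26.5 and 16.5 CPM in the controls (-2.36 ± 0.33, adjusted p = 0.0154). The intestinal lectins Reg3a, Reg3b and Reg3g had 0 counts in every library.

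The receptors of Lcn2 were little expressed. Slc22a17, a receptor described for Lcn2 in mouse cells, had 36 and 36 counts in the deletion libraries against 35 and 20 in the controls (0.11 ± 0.40, edgeR adjusted p = 0.901), and Lrp2 (megalin), which takes up Lcn2 in kidney, had 6 and 6 against 8 and 7, below the filter. Bdh2, an enzyme reported to make a mammalian siderophore, was at -0.04 ± 0.24 (adjusted p = 0.949). Of 21 tested genes of siderophore and iron handling, 3 rose, 0 fell and 18 did not pass. The called share was 14.3% against 6.57% of all tested genes, and the median was 0.87. Unadjusted edgeR p-values under 0.05 marked 8 higher genes and 1 lower, and DESeq2 called 6 higher and 0 lower. They were the metalloreductase Steap4 (1.98 ± 0.25, edgeR adjusted p = 0.0120), the ferroxidase Cp (1.13 ± 0.21, 0.0336) and Bmp6 (1.76 ± 0.33, 0.0342), which induces hepcidin. Cp and Bmp6 lost their calls without deletion replicate 1 (0.0524 and 0.104) or 2 (0.128 and 0.159).

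Other acute phase genes did not move as 1 group. Of 34, all tested, 8 rose, 1 fell and 25 did not pass (26.5% called against 6.57% of all tested genes, median 0.28). Saa2, a serum amyloid A apolipoprotein, had 533 and 254 CPM in deletion replicates 1 and 2 against 12.5 and 19.2 CPM in the controls (4.64 ± 0.44, edgeR adjusted p = 0.00585). Orm2, an orosomucoid and like Lcn2 a lipocalin, had 528 and 216 CPM against 17.2 and 17.2 CPM (4.43 ± 0.45, adjusted p = 0.00706). In both genes deletion replicate 1 was the higher library, as for Lcn2 and unlike Cd14. Vnn1, a pantetheinase, rose by 1.81 ± 0.14 (adjusted p = 0.00401) and Orm3 by 1.62 ± 0.23 (0.0172), a call that Orm3 lost without deletion replicate 1 (0.0697) or 2 (0.0574). Single values of Saa and Orm copies are uncertain because near-identical genes can share reads. In the lipocalin family outside Lcn2 and the major urinary proteins, 8 of 19 genes were tested, of which Orm2 and Orm3 rose and C8g, a chain of complement C8, fell (-1.57 ± 0.16, adjusted p = 0.00738). The median of these 8 was -0.09, and 37.5% of them were called against 6.57% of all tested genes.

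Cytokines known to induce acute phase genes had low counts. Il6 had 0 and 1 counts in the deletion libraries against 1 and 2 in the controls, and Il17a, Il22 and Osm had 0 counts in every library. Il1b had 25 and 9 counts against 9 and 8, and Tnf 22 and 6 against 6 and 3, all below the filter. Il1a had 64 and 40 counts in the deletion libraries against 60 and 38 in the controls, and was at -0.18 ± 0.40 (edgeR adjusted p = 0.829). Lif, a cytokine of the interleukin 6 family, had 45 and 14 counts in the deletion libraries against 3 and 1 in the controls, groups that did not overlap (3.55 ± 0.91, adjusted p = 0.0756). Of 33 tested cytokines, receptors and transcription factors, 5 rose, 2 fell and 26 did not pass (21.2% called against 6.57% of all tested genes, median 0.61). The receptor chains Il1rap, shared by interleukin 1 family receptors, and Il6ra fell by 1.43 ± 0.17 and 1.39 ± 0.23 (edgeR adjusted p = 0.0103 and 0.0248). Il1rap lost its call without deletion replicate 2 (0.0594) and Il6ra without deletion replicate 1 (0.0602). Il1r1, the interleukin 1 receptor, had 38.8 and 90.9 CPM in deletion replicates 1 and 2 and 75.7 and 155 CPM in the controls (adjusted p = 0.346).

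Among the transcription factors, the NF-kB subunits Nfkb2 and Relb rose by 2.34 ± 0.31 and 2.79 ± 0.55 (edgeR adjusted p = 0.0137 and 0.0406). Relb lost its call without deletion replicate 1 (0.0850). Nfkbiz, an atypical IkB protein that mouse cells need for Lcn2 induction by Toll-like receptors and interleukin 1, had 34.9 and 22.2 CPM in the deletion libraries against 14.6 and 17.4 CPM in the controls, groups that did not overlap (0.84 ± 0.25, adjusted p = 0.107). Of the C/EBP factors of the acute phase, Cebpd was at 0.56 ± 0.29 and Cebpb at -0.24 ± 0.15 (adjusted p = 0.298 and 0.373). Stat3, which carries the interleukin 6 signal, was at 0.07 ± 0.17 and its feedback target Socs3 at 0.69 ± 0.21 (adjusted p = 0.835 and 0.117).

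Markers of cells that can make Lcn2 or Cd14 were read beside them. Of 18 neutrophil markers, 6 were tested, of which 0 rose and 1 fell, or 16.7% called against 6.57% of all tested genes. Their median was 1.51, and 5 had a positive value. At an unadjusted p under 0.05 there were 3 higher genes, and DESeq2 called 0 higher. The 1 that fell was Hdc (-1.48 ± 0.21, edgeR adjusted p = 0.0159, or 0.0566 without deletion replicate 1), the histamine-forming enzyme, which other cells make too. The list summed to 20.3 and 27.5 CPM in the deletion libraries against 22.7 and 29.7 CPM in the controls, and Hdc made up much of the control sums. Without Hdc, a choice made after seeing the data, the sums were 14.3 and 19.6 CPM in the deletion libraries against 3.45 and 9.96 CPM in the controls, which did not overlap. The calgranulins S100a8 and S100a9 were at 1.85 ± 0.72 and 1.85 ± 0.59 and the protease Mmp9 at 1.69 ± 0.46 (edgeR adjusted p = 0.187, 0.123 and 0.0901). The defining gene Ly6g had 0 counts in every library. The granule genes Camp, Ngp, Elane and Mpo had at most 18 counts in a deletion library and at most 2 in a control. Ltf, of the same list, had 10 and 7 counts in the deletion libraries against 0 and 5 in the controls. Prtn3, another granule gene, had 42 and 156 counts against 10 and 52 (1.32 ± 0.86, edgeR adjusted p = 0.409), so its groups overlapped.

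The lists share some genes, as with Camp and Elane among the antimicrobials, so their called shares are not separate results. The called Steap4 and Cp are in both the iron and the acute phase lists. The called Orm2 and Orm3 are in both the acute phase and the lipocalin lists.

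Of 25 Kupffer cell, monocyte and macrophage markers, all tested, 2 rose, 0 fell and 23 did not pass. Thus 8% were called against 6.57% of all tested genes, with a median of 0.60 and 23 positive values. An unadjusted edgeR p under 0.05 was reached by 14 higher markers and 1 lower one. With DESeq2, calls went to 3 higher markers and 0 lower ones. The chemokine receptor Cx3cr1 (2.00 ± 0.39) and the scavenger protein Cd5l (0.83 ± 0.18) rose, at edgeR adjusted p of 0.0391 and 0.0499. They lost their calls without deletion replicate 1 (0.194 and 0.199), deletion replicate 2 (0.230 and 0.126) or control replicate 1 (0.0553 and 0.0756). Left-out libraries moved the number of called markers between 0 and 12. The list summed to 1279 and 1022 CPM in deletion replicates 1 and 2 against 642 and 877 CPM in the controls, and none of its genes was at 0. Deletion replicate 1 had the higher sum, and how these markers relate to Cd14 was not tested.

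Of 16 hepatocyte markers, all tested, 0 rose and 5 fell, against 2.16% lower among all tested genes, and 0 of the 16 had a positive value. Unadjusted p-values under 0.05 marked 13 lower and 0 higher, DESeq2 called 14 lower and 0 higher, and leaving out 1 library gave 3 to 9 called. The list had sums of 84497 and 75738 CPM in the deletion libraries against 190545 and 182737 CPM in the controls. Alb, which was not called, alone made up 45310 and 42886 CPM in the deletion libraries and 119049 and 114960 CPM in the controls. The 5 were Tdo2, Fabp1, Cyp2e1, Ttr and Hpd, at log2 fold changes of -2.12 to -1.50, and Ttr and Hpd lost their calls without deletion replicate 2 (edgeR adjusted p = 0.0963 and 0.0968). Lbp, likewise a hepatocyte product, was at -0.23 ± 0.26. Of 12 tested ductular markers, 2 rose and 0 fell, or 16.7% called against 6.57% of all tested genes. An unadjusted edgeR p under 0.05 was found for 4 higher ductular genes and 1 lower, while calls by DESeq2 numbered 3 higher and 0 lower. The 2 that rose were the secreted Spp1 (4.98 ± 0.26, edgeR adjusted p = 0.00188) and the transcription factor Sox9 (1.81 ± 0.23, 0.0124). The ductular sums were 1409 and 2041 CPM in the deletion libraries against 185 and 86.4 CPM in the controls, and of these Spp1 alone made up 1327 and 1916 CPM in the deletion libraries and 50.4 and 52.5 CPM in the controls. Without Spp1 they were 82.7 and 125 CPM against 134 and 33.9 CPM, and the groups overlapped. Of the 12, 7 had a positive value, and the biliary keratins Krt19 and Krt7 were at -2.62 ± 1.01 and -1.54 ± 0.68 (adjusted p = 0.182 and 0.230). Krt19 had 53 and 77 counts in the deletion libraries against 635 and 47 in control replicates 1 and 2, so control replicate 1 stood apart. Among endothelial, stellate cell and lymphocyte markers, 12, 12 and 6 were tested and edgeR called 0 of each, against 6.57% of all tested genes. Unadjusted p-values under 0.05 marked 3 lower endothelial genes and 1 higher and 3 lower stellate genes, and 0 lymphocyte genes, while DESeq2 called 1 endothelial gene lower and 0 of the others. The part of these cell types in the Lcn2 and Cd14 values was not tested.

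**Figure D4:**
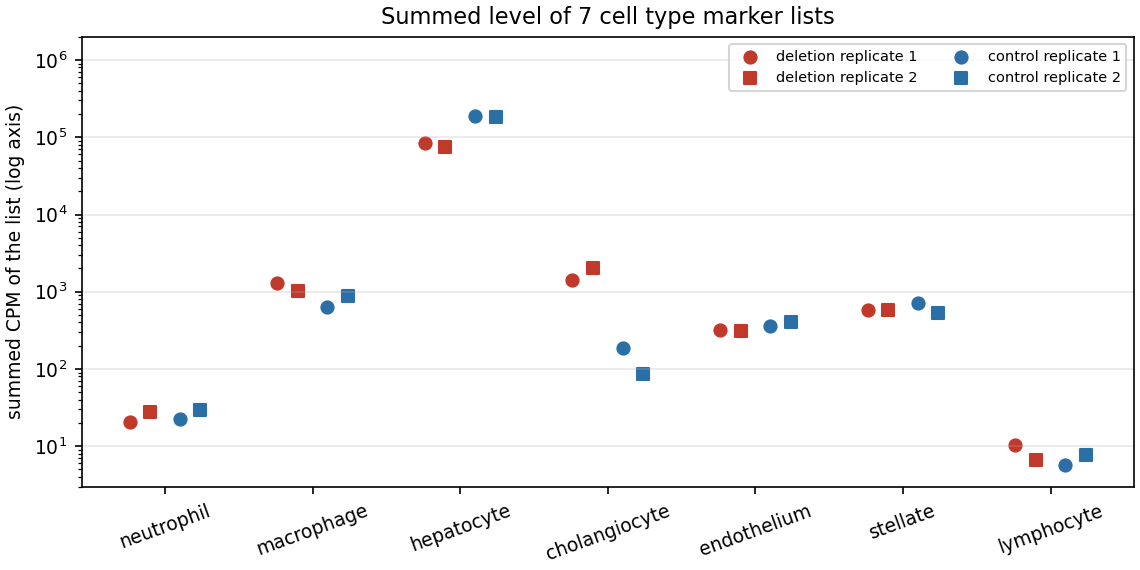
Summed CPM (log axis) of 7 lists of cell type markers in the deletion libraries (red) and the controls (blue), with replicate 1 as circles and replicate 2 as squares. Neutrophil sums, with Hdc included, lie at 20.3 to 29.7 CPM in all 4 libraries, and hepatocyte sums are lower in the deletion libraries than in the controls.

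Likeness of pattern was measured as the root mean square difference of log2 CPM over the 4 libraries, each gene centred on its own mean, as a description. The genes closest to Lcn2 were Cxcl14, a chemokine (0.33), Spp1 (0.36), the unnamed ENSMUSG00000119954 (0.40), Gm11843 (0.43) and Saa2 (0.48). ENSMUSG00000119954 had 1 count in each control, so its closeness depends on the prior count of 2 added before the logarithm. Cxcl14 had 23.9 and 19.2 CPM in deletion replicates 1 and 2 against 0.432 and 1.03 CPM in the controls, so that it shared with Lcn2 both the order of the deletion libraries and the order of the controls. Closest to Cd14 were the fatty acid elongase gene Elovl7 (0.10), Slc5a9 (0.14), the pseudogene H2-T-ps (0.16), the phagocytosis bridging protein gene Mfge8 (0.19) and Asb11 (0.20). Elovl7 had 17.0 and 32.3 CPM against 0.925 and 1.03 CPM, and Slc5a9 and Asb11 had 0 counts in both controls, so that their control values and their closeness to Cd14 follow from the prior count of 2 added before the logarithm. Lcn2 and Cd14 lay 0.64 from each other, which made Cd14 the 16th closest gene to Lcn2 and Lcn2 the 58th closest to Cd14. Lbp lay 2.78 from Lcn2 and 2.26 from Cd14. Closest to Lbp was Sec61g, a subunit of the channel for secreted proteins (0.029), with 35.8 and 51.2 CPM in deletion replicates 1 and 2 against 41.4 and 57.5 CPM in the controls, and replicate 2 the higher of each pair as in Lbp. The next 4, Rbm4, Slc22a13b-ps, Mfsd4a and Soga1, lay 0.041 to 0.050 from Lbp. Rbm4, Slc22a13b-ps and Soga1 had only 11 to 26 counts in a library, so their places are uncertain.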

How the data were processed

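The authors deposited raw counts, 1 per Ensembl gene and library, in a table of 56953 rows whose 4 columns the labels tie to samples. QuantSeq 3′ libraries were sequenced single-end and aligned with Bowtie2, per the labels' protocols, which also name edgeR. Per the submitters' processing notes the builds were mm10 and GRCm38. Counting program, strand setting, multi-mapping and annotation: not given in the sources used here. Antisense genes and near-identical copies are therefore uncertain.

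Symbols and coordinates came from GENCODE M21 (GRCm38), which matched 52029 rows. Groups were compared with edgeR 4.0.16 (quasi-likelihood F test, TMM, R 4.3.3) after filterByExpr (minimum count 10, total 15), which left 14600 genes. P-values were two-sided, adjusted by Benjamini-Hochberg over all tested genes and called under 0.05. Each SE was obtained by dividing the size of the log2 fold change by the root of F. CPM SDs are over 2 libraries. Totals of 16270424 to 17800138 counts put 3 counts at 0.154 to 0.206 CPM. The fit, tested on simulated data, had 2 residual degrees of freedom. Exact permutation of 2 against 2 cannot go below p = 0.333, and it was not used. Intervals on shares are Clopper-Pearson and cover counting error only, as no molecular identifiers were used. Replicates of a group differed beyond sampling noise (chi-square per degree of freedom 25.3 for deletion and 38.9 for control). Alternatives were DESeq2 1.42.0, RLE scaling, library sizes alone, no filter, a replicate block, the share of Y-linked counts as a covariate, and leaving out each library.

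Lcn2, Cd14, Lbp, the 7 pathway lists, the 7 marker lists and the tests were chosen with earlier results of these data known. Named genes were those 3, a set of 27 core genes of endotoxin, siderophore and cytokine biology, up to 5 called genes per list by smallest p, the 2 nearest tested genes on each side, and the 5 genes most alike in pattern. Clec4f, Alb, Lif, Il1a, Osmr, Hamp, Krt7, Krt19, S100a8, S100a9, Mmp9 and Prtn3 were added after their values were seen. So were the genes named at 0 or low counts. Lists were described by counts, with no set test. 1 gene that the rule names is not reported here.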

Additional observations from a re-analysis of the deposited data

How the results depend on the processing

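Under all 10 alternatives Lcn2 stayed between 5.05 and 5.58 and Cd14 between 3.89 and 5.30 on the log2 scale, while Lbp ranged from -0.52 to 0.41. Leaving out 1 library gave 5.05 to 5.58 for Lcn2, 3.89 to 4.73 for Cd14 and -0.52 to 0.059 for Lbp (0.0049 without deletion replicate 1). Library sizes alone gave 5.58 for Lcn2 and 0.074 for Lbp. The Y-linked covariate gave 5.30 for Cd14 and 0.41 for Lbp, in a fit with 1 residual degree of freedom less.

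Called genes over all genes numbered 1647 with DESeq2, 1764 with library sizes alone, 2768 without a filter, 390 with a replicate block and 65 with the Y-linked covariate, and 343 to 2081 with 1 library left out (343 without deletion replicate 2, 499 without deletion replicate 1, 1700 without control replicate 1, 2081 without control replicate 2). The share of higher calls was 67.2%, or 88.5% with library sizes alone and 95.4% with the Y-linked covariate; the causes were not tested. The labels do not say that a replicate number marks a shared source, and the deviations of same-numbered libraries correlated at -0.12 across genes, so the replicate block pairs libraries by number only. With it Lcn2, Cd14 and Lbp stood at 5.31, 4.33 and -0.23.

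Called acute phase genes numbered 14 with DESeq2, 17 without a filter and 1 with the covariate, or 5 to 16 with 1 library left out. Called regulators numbered 12, 14 with library sizes alone, 19 without a filter and 0 with the covariate, or 3 to 15. Called antimicrobial genes numbered 6, 8, 13 and 1 in that order, or 3 to 10. Called iron genes numbered 6, 8, 11 and 0, or 1 to 11. Recognition genes numbered 4 with library sizes alone, 4 without a filter and 0 with the covariate, or 1 to 5. Endotoxin handling genes numbered 4, 5 and 0, and 1 with the replicate block, or 1 to 3. Lipocalins numbered 6 without a filter and 1 with the covariate, or 2 to 5. Of 39 called named genes, 32 lost their call with the covariate (Ube2n at adjusted p = 0.0643), 12 with the replicate block (Alpl, Asb11, Bmp6, Cd5l, Cx3cr1, Defb1, Il6ra, Leap2, Orm3, Relb, Slc5a9 and Tgm2) and 1 with RLE scaling (Cd5l).

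Values of genes that had not passed changed sign as follows. Library sizes alone gave Bdh2 0.25, Cebpb 0.053, D630003M21Rik 0.17, Irak2 0.20, Mfsd4a 0.065, Sec61g 0.12, Slc22a13b-ps 0.096, Slc35a4 0.27 and Tirap 0.16. The covariate gave Aoah -0.56, Il1r1 0.55, Mfsd4a 0.38, Ptges2 -0.32, Rbm4 0.48, Sec61g 0.43, Slc22a13b-ps 0.50, Slc22a17 -0.061, Soga1 0.28, Tirap 0.12, Tlr4 -0.15 and Tmco6 -0.071. With 1 library left out the sign also changed for Tlr4 (-0.32 to 0.87), Slc22a17 (-0.17 to 0.47), Bdh2 (-0.18 to 0.081), Stat3 (-0.061 to 0.22), Ptges2 (-0.0056 to 0.48), Slc35a4 (-0.31 to 0.23), Snhg11 (-0.29 to 1.45), Sec61g (-0.47 to 0.073) and Slc22a13b-ps (-0.54 to 0.057). Genes with few counts, such as Tlr4 at 22 to 51, allow only large differences to be seen at this depth.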
